A study of Mus musculus with 6 samples.

Results

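Mesothelial cells of the aged mouse lung were chosen from single-cell libraries by their transcripts. A cell barcode was taken as mesothelial when it held at least 1 molecule (counted by its unique molecular identifier, UMI) of Msln, at least 1 of Upk3b, and at least 1 of Wt1 and Lrrn4 together. It also had to lack Cdh5 and Ptprc, the endothelial and pan-leukocyte genes, and to hold at least 500 genes and 1000 UMIs with at most 15% of UMIs from mitochondrial genes. This gave 212 cells of 94392 barcodes in all, of which 88616 passed the cell filter and 55703 of those held no Ptprc UMI.

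The lungs came from male C57BL/6 mice of 21 months, in 6 libraries. All mice, controls included, carried p16-CreERT2, a tamoxifen-activated Cre driven by the promoter of p16 (Cdkn2a), so that the Cre acts where that promoter is active. The 3 p16-DTR libraries came from mice that also carried R26-LSL-DTR, a stop-floxed diphtheria toxin receptor, while the 3 control libraries came from mice with p16-CreERT2 alone. Both groups received tamoxifen (TAM) for 5 days, diphtheria toxin (DT) for 5 days after a gap of 2 weeks, and 2 weeks to recover. Each lung was digested with Liberase, and 20000 sorted CD45- cells were mixed with 9000 CD45+ cells before 3' library preparation, so the share of a cell type among all barcodes follows that mixing. Replicate numbers here name libraries; the labels do not state that each came from 1 animal, and p-values measure the spread between libraries.

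The mesothelium is the single layer of flat cells that covers the lung as the visceral pleura and also lines the chest wall, pericardium and abdominal cavity. It is of mesodermal origin and joins epithelial features (keratins, tight junctions, apical microvilli, a basement membrane) with mesenchymal ones such as vimentin. It makes the slippery glycocalyx and lubricating fluid of the pleural space, and after injury its cells can take on a fibroblast-like form, a change known as mesothelial to mesenchymal transition. Msln encodes mesothelin, a surface glycoprotein that binds the mucin made from Muc16. Upk3b is a uroplakin of the apical membrane, Lrrn4 a leucine-rich repeat membrane protein, and Wt1 a zinc finger transcription factor of the mesothelium and of the embryonic mesoderm it comes from.

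Promoter sequence was looked at for the 4 genes of the rule and the 20 genes that stood furthest above 2 other cell types (described further on), because these genes share a pattern of expression. Of these 24 genes, 17 matched a RefSeq promoter table (GRCm38.p6), with 20 promoters of 250 bases before and 50 after the start; those without a match included Bst1, Fras1, Msln, Pkhd1l1, Slurp1 and Wt1. The letters GGAATG, the core of the motif of TEAD factors, lay on either strand in 6 of 20 promoters (30%), against 14.7% of all 32851 promoters. GTGGGAG, of the WT1 motif, lay in 2 (10%, against 9.73%), and AGATAA, of the GATA motif, in 2 (10%, against 11.2%). A match is a string of letters and not a shown binding site. Whether these shares differ from those of all promoters was not tested. The genes were picked by their levels in these data, and Lrrn4 and Upk3b, among the TEAD matches, are genes of the rule. The 6 TEAD matches follow, on the gene's strand from 5′ to 3′, with up to 20 bases on each side, the matched letters in capitals (CATTCC where the match is on the opposite strand) and no overlap with a match of the other motifs.
Lrrn4, chr2:132881033-132881078, minus strand, first capital at -196 from the start: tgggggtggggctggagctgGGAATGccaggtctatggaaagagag
Upk3b, chr5:136038246-136038280, plus strand, first capital at -241: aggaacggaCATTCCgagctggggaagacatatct
Cldn15, chr5:136967619-136967657, plus strand, first capital at -237: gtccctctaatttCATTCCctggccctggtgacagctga
Fxyd3, chr7:31076756-31076801, minus strand, first capital at -84: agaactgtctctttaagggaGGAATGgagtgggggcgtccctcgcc
Grip1, chr10:119819190-119819235, plus strand, first capital at -179: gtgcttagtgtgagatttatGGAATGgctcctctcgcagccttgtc
Gm12381, chr4:38855546-38855591, minus strand, first capital at -88: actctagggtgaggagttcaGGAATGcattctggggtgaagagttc

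The cells were deep for single-cell data. The median was 20794.5 UMIs a cell (range 1273 to 118181) and 5050 genes, with a median of 2.10% mitochondrial UMIs and a highest value of 10.2%. The median UMIs per cell were 21786, 20974 and 22955 in p16-DTR libraries 1 to 3 and 20492.5, 23801 and 19030 in control libraries 1 to 3; the groups overlapped (two-sided exact permutation test, p = 0.7, n = 3 and 3, where 0.1 is the smallest p possible). The groups also overlapped in genes per cell (exact p = 0.2) and mitochondrial share (exact p = 0.6). Whole libraries held 13482 to 17332 barcodes and 254200305 to 344421685 UMIs.

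The values that chose the cells are a description only. On GRCm38 (GENCODE M21) the genes lie at chr17:25748613-25754378 (Msln, minus strand), chr5:136038496-136046487 (Upk3b, plus), chr2:105126529-105173616 (Wt1, plus) and chr2:132868305-132880891 (Lrrn4, minus). Msln had a median of 26 UMIs a cell (1 to 264) and Upk3b of 46 (1 to 259). Wt1 had a median of 7 with 15 cells at 0, and Lrrn4 of 10.5 with 8 cells at 0. Summed over the cells of a library, Upk3b stood at 2213, 2440 and 2372 CPM (UMIs of the gene per 1000000 UMIs) in the p16-DTR libraries and 2410, 2637 and 2788 in the controls. Msln stood at 1904, 1568 and 1473 CPM against 1256, 1901 and 1893. The groups overlapped for both. At the edge of the rule, 7 cells had a single Msln UMI, 2 a single Upk3b UMI and 6 a single UMI of Wt1 or Lrrn4. Just outside, 48 barcodes failed for Msln alone (their medians were 11 Wt1, 3 Upk3b and 1 Lrrn4 UMI), 2 for Upk3b alone and 8 for Wt1 and Lrrn4. A Cdh5 UMI alone kept out 46 barcodes, 26 of them with exactly 1, and a Ptprc UMI alone kept out 32, 17 of them with exactly 1.

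By library the cells numbered 19, 26 and 22 in p16-DTR and 66, 30 and 49 in control. A search for doublets by simulated neighbours marked 0, 0 and 0 against 4, 1 and 7 of them, which left 200 cells. A marker check, which asks for 3 of 5 markers of another lineage, marked 45 (5, 5 and 3 against 15, 5 and 12); the lineage was fibroblast in 33, endothelium in 10, alveolar type 1 in 6 and immune in 1. No cell barcode sequence was shared between members of different libraries, although 1055 of the 93313 sequences in the series occurred in more than 1 library.

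Checked against their label, the 31 further mesothelial markers summed to 25095 to 29964 CPM over the libraries, against 1686 to 2371 in all other barcodes. Not every marker was present: Calb2, the calretinin gene used as a mesothelial marker in pathology, was at 0, and after thinning to 5000 UMIs Sbspon was in 0% and Cdh2 in 4.52% of cells, against 95.5% for Muc16 and 91.0% for Upk1b. Markers of most other lineages were low. The immune list (Ptprc at 0 by the rule) summed to 14.8 to 26.3 CPM, against 1803 to 2774 in all other barcodes. Endothelial markers summed to 62.4 to 95.4 (others 3182 to 5266) and smooth muscle and pericyte markers to 5.71 to 77.9 (75.9 to 144). Alveolar type 2 markers summed to 133 to 258 (5558 to 7728). Alveolar type 1 markers were closer to the rest, at 397 to 563 (664 to 1072). Adventitial fibroblast markers were above it and summed to 3834 to 6680, against 1615 to 2714 elsewhere, through Dcn (4493 CPM), Col14a1 and Cd34 (248).

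To describe what set the cells apart, they were compared with an epithelial and a mesenchymal neighbour from the same libraries. These were alveolar type 1 cells, the flat cells of the gas exchange surface (335 barcodes with at least 2 Ager, 1 Rtkn2 and 1 Hopx UMI), and adventitial fibroblasts of the loose connective tissue around vessels and airways (2223 barcodes with Pi16, Dcn and Col1a2). Both lacked Cdh5, Ptprc and Upk3b. UMIs were summed per library and cell type and tested with edgeR's quasi-likelihood test, library as a block, with Benjamini-Hochberg adjustment over all genes; all adjusted p-values in the next paragraphs come from it. Against alveolar type 1 cells, 2595 of 10308 genes (25.2%) were higher and 2576 (25%) lower; against adventitial fibroblasts, 2665 of 13576 (19.6%) were higher and 3305 (24.3%) lower. Of the 10108 genes tested in both, 1165 (11.5%) were higher than in both cell types and 763 (7.55%) lower than in both. The alveolar type 1 barcodes also held type 2 RNA (Sftpc at 45196 ± 17025 CPM, SD, n = 6), and its part in the differences from them was not tested.

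Most of the further mesothelial markers were higher than in both neighbours. Of 27 further markers tested in both comparisons, 20 were higher than in both and 0 lower than in both, against 11.5% and 7.55% of all genes. Of apical surface and glycocalyx genes these were 6 of 12 and 0, and of retinoid genes 3 of 13 and 1. Muc16 (chr9:18495455-18674530, minus strand), the membrane mucin that mesothelin binds, stood at 1852, 1861 and 2048 CPM in the p16-DTR libraries and 2099, 2555 and 2827 in the controls; alveolar type 1 cells held 0.196 CPM and adventitial fibroblasts 0.0941. It was found in 97.2% of the cells, and the difference from both was called (adjusted p = 9.5e-10 and 1.38e-11). Cldn15, a claudin that forms cation pores in tight junctions, ran from 407.8 to 571.2 CPM over the 6 libraries, against 0.106 and 1.25. Aldh1a2, which makes retinoic acid, reached 632 ± 107 CPM (SD, n = 6), against 0.770 in alveolar type 1 cells and 25.9 in adventitial fibroblasts (log2 fold change 4.54 ± 0.16, SE, adjusted p = 9.38e-10). Ezr, the microvillus linker ezrin, stood at 1319 ± 152 CPM, against 309 and 41.2. Gpm6a, a membrane glycoprotein, was nearly absent from the fibroblasts (0.209 CPM) but present in alveolar type 1 cells (339), and was higher in mesothelial cells than in either (2821 ± 331; log2 fold change 2.96 ± 0.15 and adjusted p = 5.42e-08 against type 1 cells).

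Keratins and junctions put the cells on the epithelial side of fibroblasts but not above alveolar type 1 cells. Of the keratin and junction genes, 15 of 18 were higher and 1 lower than in fibroblasts (19.6% and 24.3% of all genes). Against alveolar type 1 cells 4 of 19 were higher, near the share of all genes (25.2%), and 14 lower (25%). Krt19, found in 91.5% of cells, stood at 445 ± 58.5 CPM, against 348 in type 1 cells (log2 fold change 0.22 ± 0.14, adjusted p = 0.204) and 0.808 in fibroblasts (8.84 ± 0.29, 5.6e-10). Krt7, Krt8 and Krt18 were lower than in type 1 cells (Krt7 263 against 909 CPM, adjusted p = 1e-05). The classical epithelial cadherin Cdh1 was nearly absent, at 0.608 CPM and in 1.42% of cells, against 372 CPM in type 1 cells. Cdh3, P-cadherin, ran the other way at 54.5 ± 13.5 CPM, against 1.32 and 0.178, and was called in both.

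**Figure D1:**
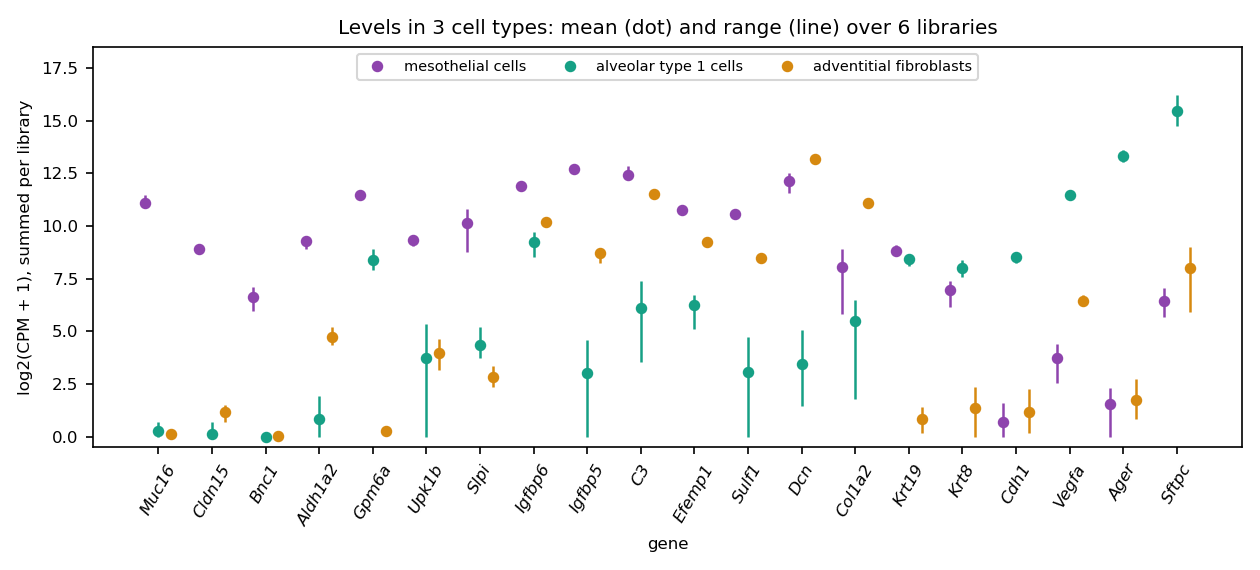
Levels of 20 genes in mesothelial cells, alveolar type 1 cells and adventitial fibroblasts, as log2(CPM + 1) from UMIs summed per library; dots are means and lines the range over 6 libraries. Muc16, Cldn15 and Bnc1 sit high only in mesothelial cells among the 3 types, Krt19 sits level with alveolar type 1 cells, and Dcn and Col1a2 are highest in adventitial fibroblasts; Dcn, Col1a2 and Ager are genes of the comparison rules.

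Transcription factors of the mesothelium and its mesoderm differed from both neighbours, more in 1 direction against alveolar type 1 cells. Against these, 13 of 17 were higher and 1 lower (25.2% and 25% of all genes). Against adventitial fibroblasts 9 of 18 were higher and 7 lower (19.6% and 24.3%). Of 17 tested in both, 8 were higher than in both and 0 lower than in both (11.5% and 7.55%). Bnc1, the zinc finger factor basonuclin 1, had 61.93, 108.7 and 76.51 CPM in p16-DTR and 135.5, 91.36 and 117.1 in control, with alveolar type 1 cells at 0 and fibroblasts at 0.0135. Sox6, an SRY-box factor, stood at 550 ± 127 CPM (12.9 and 16.2 in the neighbours). The GATA factors were also higher than in both: Gata4, known from heart and mesothelium, at 57.8 ± 13.8 CPM (0.106 and 4.94), and Gata6 at 276 ± 49.9 (176 and 107; log2 fold change 0.51 ± 0.12, adjusted p = 0.00511, and 1.27 ± 0.10, 1.12e-06). Tcf21, a factor of lung fibroblasts, was lower than in adventitial fibroblasts, at 10.9 against 169 CPM (-4.06 ± 0.29, 3.17e-07).

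Interstitial matrix genes mostly lay between the neighbours. Of interstitial matrix genes, 18 of 26 were higher than in alveolar type 1 cells (25.2% of all genes) and 21 of 25 lower than in adventitial fibroblasts (24.3%). Col3a1, a fibrillar collagen chain, stood at 743 ± 278 CPM, against 38.2 and 1596, and Col1a1 at 148 ± 90.7, against 24.8 and 1054. These sums keep 33 cells that held at least 3 fibroblast check markers. A single cell held 94 of 114 Col1a1 UMIs in p16-DTR library 1 and 25 of 37 in control library 2. In the other libraries the top cell held 7.57% to 33.3%. The part of such cells in these levels was not tested. Lum, the collagen-binding proteoglycan lumican, was in 3.30% of cells. Efemp1, the elastic fibre protein fibulin 3, and Sulf1, an extracellular heparan sulfate sulfatase, went above both neighbours (Efemp1 1720 ± 155 CPM, against 76.3 and 604). Of basement membrane genes, 2 of 19 were higher than in both (11.5% of all genes) and 3 lower than in both (7.55%), among them Col4a1, a type IV collagen chain, at 119 ± 53.2 CPM against 648 and 489. Of the genes of TGF-beta signalling and mesothelial to mesenchymal transition, 10 of 20 were higher and 3 lower than in alveolar type 1 cells (25.2% and 25% of all genes), and 1 of 22 was higher and 14 lower than in adventitial fibroblasts (19.6% and 24.3%).

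Genes of class I antigen presentation and the interferon response were often higher than in the neighbours, and complement genes mainly than in alveolar type 1 cells. Of complement genes, 10 of 12 were higher and 1 lower than in type 1 cells, while 5 of 13 were higher and 4 lower than in fibroblasts; 5 of 12 were higher than in both and 0 lower than in both. Of all genes, 25.2% were higher and 25% lower than in type 1 cells, 19.6% and 24.3% than in fibroblasts, and 11.5% and 7.55% than in both. C3, the central complement protein, had 5559, 5582 and 7441 CPM in p16-DTR and 4594, 5162 and 4943 in control, against 68.2 and 2909 (log2 fold change 0.83 ± 0.09, adjusted p = 1.65e-05, above fibroblasts). C4b (3285 ± 533 CPM, against 16.9 and 1094) and C2 (638 ± 57.3, against 1.57 and 81.6), whose products form the enzyme that cleaves C3, and Clu, clusterin, which restrains the terminal complex (1689 ± 197, against 104 and 28.3), were called in both. Among MHC class I genes, 12 of 12 were higher than in alveolar type 1 cells and 9 of 12 than in fibroblasts; H2-K1 stood at 1728 ± 247 CPM, against 536 and 420, though near-identical class I genes can share reads. MHC class II genes differed in direction: 7 of 7 were lower than in type 1 cells and 5 of 7 higher than in fibroblasts, with Cd74, the invariant chain, at 80.5 ± 52.3 CPM, against 1056 and 23.2. The type 1 barcodes also held type 2 RNA, as given above, and its part in the class II levels was not tested. Of 23 interferon response genes, 11 were higher than in both and 1 lower than in both; Gbp2, a guanylate-binding protein, stood at 322 ± 61.5 CPM (3.22 and 82.5).

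**Figure D2:**
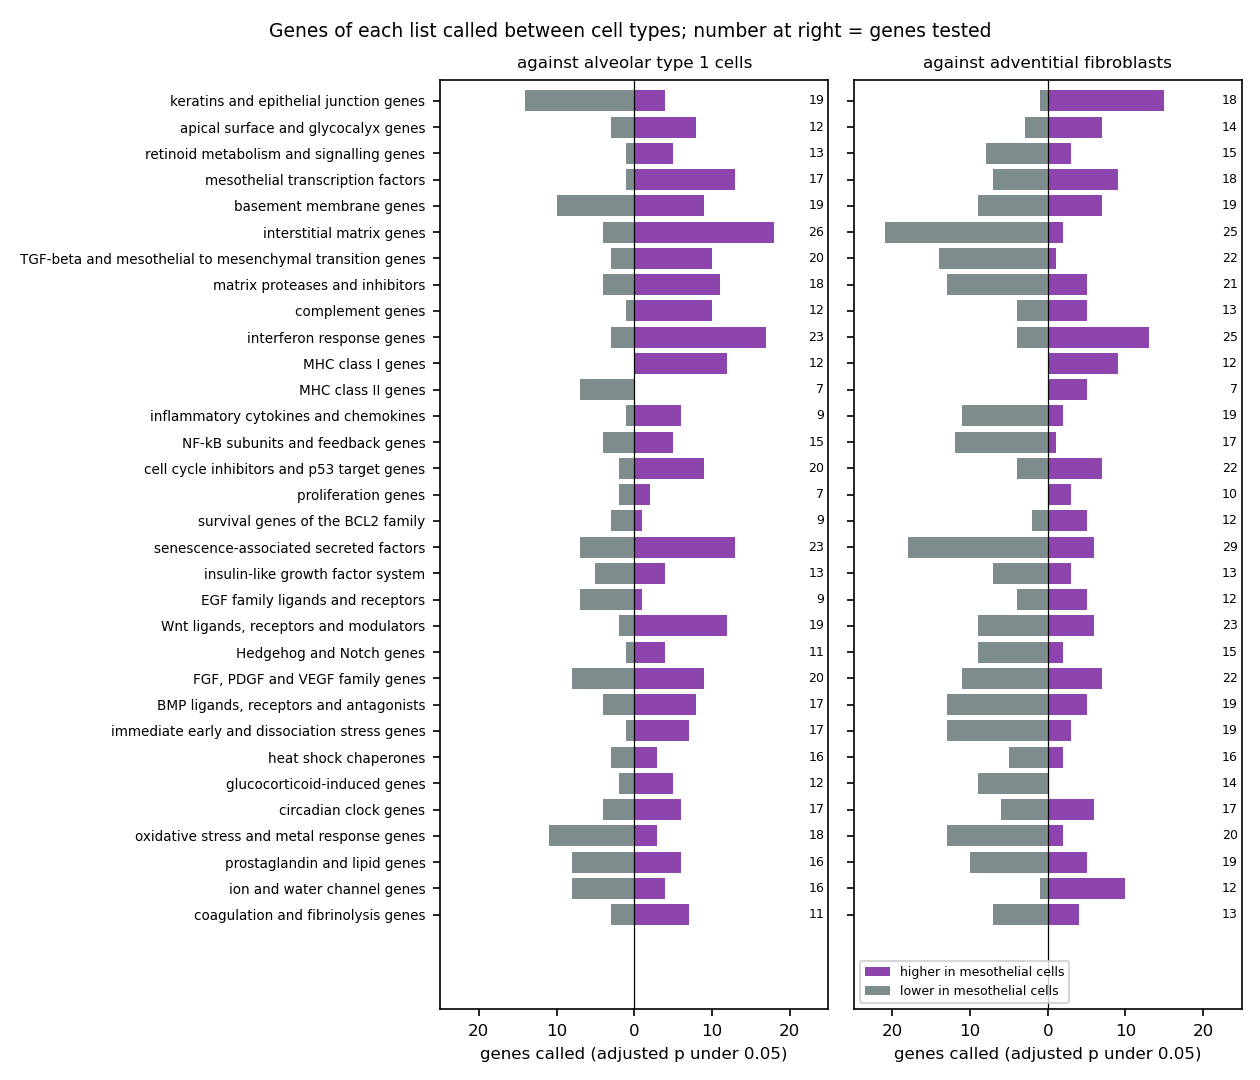
Number of genes in each of 32 lists that were higher (right) or lower (left) in mesothelial cells than in alveolar type 1 cells and adventitial fibroblasts, by edgeR with an adjusted p under 0.05; the number at the right edge of a panel is the genes tested. Class I genes point right in both panels (12 and 9), keratins and junctions point left against type 1 cells (14 of 19) and right against fibroblasts (15 of 18), and interstitial matrix does the reverse (18 of 26 right, 21 of 25 left). Over all genes the shares higher and lower were 25.2% and 25% against type 1 cells, and 19.6% and 24.3% against fibroblasts.

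Signalling genes differed in both directions. Of the FGF, PDGF and VEGF family genes, 5 of 19 were higher than in both neighbours and 4 lower than in both, and of the BMP genes 5 of 17 and 4 (11.5% and 7.55% of all genes). Kdr, the VEGF receptor known mainly from endothelium, had 357.6, 438.7 and 281.1 CPM in p16-DTR and 251.0, 301.2 and 463.7 in control and was in 85.4% of the cells, while alveolar type 1 cells held 3.01 and fibroblasts 1.73 (log2 fold change 6.47 ± 0.36, adjusted p = 1.07e-07, and 7.46 ± 0.18, 7e-11). Cdh5 was at 0 by the rule, and the endothelial list is given above. Of the 212 cells, 10 held at least 3 of 5 endothelial check markers. The part of endothelial RNA in the Kdr level was not tested. Vegfa, the ligand of Kdr, was lower than in both, at 12.2 ± 4.98 CPM against 2874 and 87.0. Bmpr1b, a type I BMP receptor, stood at 275 ± 53.7 CPM (0.272 and 5.37) and Id1, a target of BMP signalling, at 189 ± 67.7 (28.3 and 19.4), called in both. Of Wnt genes, 4 of 19 were higher than in both and 0 lower than in both (the same shares of all genes apply), including Rspo1, a secreted Wnt enhancer, at 409 ± 76.7 CPM (24.8 and 26.2) and Sfrp2, a secreted Wnt modulator, at 524 ± 227 (0 and 10.0). Fgf9, a growth factor known as a signal from the mesothelium to the embryonic lung, had 28.5 ± 15.9 CPM (0 and 1.61).

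Of the insulin-like growth factor (IGF) carriers, Igfbp5 and Igfbp6 were among the more abundant transcripts. Igfbp5, an IGF-binding protein, had 5939, 6214 and 7466 CPM in p16-DTR and 5890, 7457 and 7480 in control, against 7.21 in alveolar type 1 cells and 421 in fibroblasts (log2 fold change 3.93 ± 0.13, adjusted p = 8.52e-10, above fibroblasts). Igfbp6, which prefers IGF2, stood at 3828 ± 428 CPM (602 and 1159) and was in every one of the 212 cells, at 100%. Of the whole IGF list, 2 of 13 genes were higher than in both (11.5% of all genes) and 3 lower than in both (7.55%). Of the senescence-associated secreted factors, 5 of 23 were higher and 5 lower than in both, against 11.5% and 7.55% of all genes. Against alveolar type 1 cells 13 of 23 were higher and 7 lower (25.2% and 25% of all genes). Against fibroblasts 6 of 29 were higher and 18 lower (19.6% and 24.3%).

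Some genes of transport and lipid mediators were higher than in both neighbours. Aqp1, a water channel, had 1374 ± 326 CPM (15.1 and 200) and Slc4a4, a sodium bicarbonate cotransporter, 500 ± 63.7 (28.8 and 171); of the ion and water channel genes, 4 of 12 were higher than in both and 1 lower than in both (11.5% and 7.55% of all genes). Hpgd, which inactivates prostaglandins, stood at 443 ± 142 CPM (18.2 and 19.8), Ptgs1, cyclooxygenase 1, at 254 ± 21.3 (47.2 and 21.7) and Ptgis, prostacyclin synthase, at 596 ± 98.0 (22.2 and 374); of the prostaglandin and lipid genes, 3 of 16 were higher than in both and 4 lower than in both, against the same shares. Has1, a hyaluronan synthase, had 252 ± 38.1 CPM, against 266 in fibroblasts (log2 fold change -0.15 ± 0.14, adjusted p = 0.416) and 0 in type 1 cells. Of the proliferation genes, 2 of 7 were higher and 2 lower than in type 1 cells (25.2% and 25% of all genes), and 3 of 10 higher and 0 lower than in fibroblasts (19.6% and 24.3%); Mki67, a marker of dividing cells, had a UMI in 0.943% of cells.

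Of the 1165 genes higher than in both, 20 were named for the largest smaller fold change at 100 CPM or more. Besides Muc16 and Cldn15 these included Nxph1, a secreted neurexin ligand (945 ± 354 CPM, 0 and 4.59 in the neighbours), Kcnd2, a voltage-gated potassium channel subunit (523 ± 274, 0 and 0.175), and Grip1, a PDZ scaffold protein (2094 ± 435, 4.80 and 1.14). Fras1, an extracellular basement membrane protein that works with Grip1 at epithelial borders in development, stood at 735 ± 184 CPM (1.58 and 5.47). Chst4, a carbohydrate sulfotransferase, had 189 ± 46.9 CPM, with type 1 cells at 0 and fibroblasts at 0.00673. Pkhd1l1, a large membrane protein, had 1344 ± 193 CPM (1.07 and 4.03) and was in 98.6% of cells. Others were Slurp1, Kdr, Pcnx2, Lgals2, Bst1, Lhfpl3, Zfp804b, Dnajc6, Gm12381, Fxyd3 and Ephb1, at 124 to 629 CPM. Among the 10 lower than both by the same rule were Mecom, a zinc finger transcription factor (12 ± 14.2 CPM, against 1398 and 565) and Ankrd1, a target of YAP and TEAD, which had no UMI in any of the 212 cells (129 and 3.66 in the neighbours).

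Mesothelial cells were a smaller share of the barcodes without Ptprc in each p16-DTR library than in any control library, while their number per neighbouring cell overlapped between the groups. As a share of barcodes without a Ptprc UMI they made up 0.214%, 0.299% and 0.267% in p16-DTR libraries 1 to 3, with 95% Wilson intervals of 0.137 to 0.334, 0.204 to 0.438 and 0.177 to 0.405. In the controls they made up 0.580%, 0.352% and 0.490% (0.456 to 0.737, 0.246 to 0.502 and 0.371 to 0.647). The group means were 0.260% ± 0.0430 and 0.474% ± 0.115 (SD, n = 3 each), 1.82-fold higher in control. The groups did not overlap, and the two-sided exact permutation p was 0.1, the smallest this design allows. When barcodes with a single Cdh5 or Ptprc UMI were let in (21, 38 and 26 cells against 78, 35 and 58) the separation was lost: the log2 ratio was -0.76 and the exact p 0.2. Intervals cover counting error only.

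The same cells per alveolar type 1 cell numbered 0.5, 0.788 and 0.595 in p16-DTR and 1.43, 0.330 and 0.544 in control, which overlapped (0.627 ± 0.147 against 0.770 ± 0.586, exact permutation p = 0.9, n = 3 each). Per adventitial fibroblast they numbered 0.0655, 0.0949 and 0.108 against 0.0819, 0.110 and 0.130, which also overlapped (0.0896 ± 0.0219 against 0.107 ± 0.0240, exact p = 0.4). These denominators were lower in p16-DTR too: adventitial fibroblasts were 2.96% ± 0.433 of barcodes without Ptprc against 4.68% ± 2.10 (exact permutation p = 0.2, n = 3 each) and alveolar type 1 cells 0.419% ± 0.0358 against 0.790% ± 0.344 (p = 0.3). Their part in the share was not tested. Fewer cells in the lung and fewer cells released by digestion cannot be told apart.

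**Figure D3:**
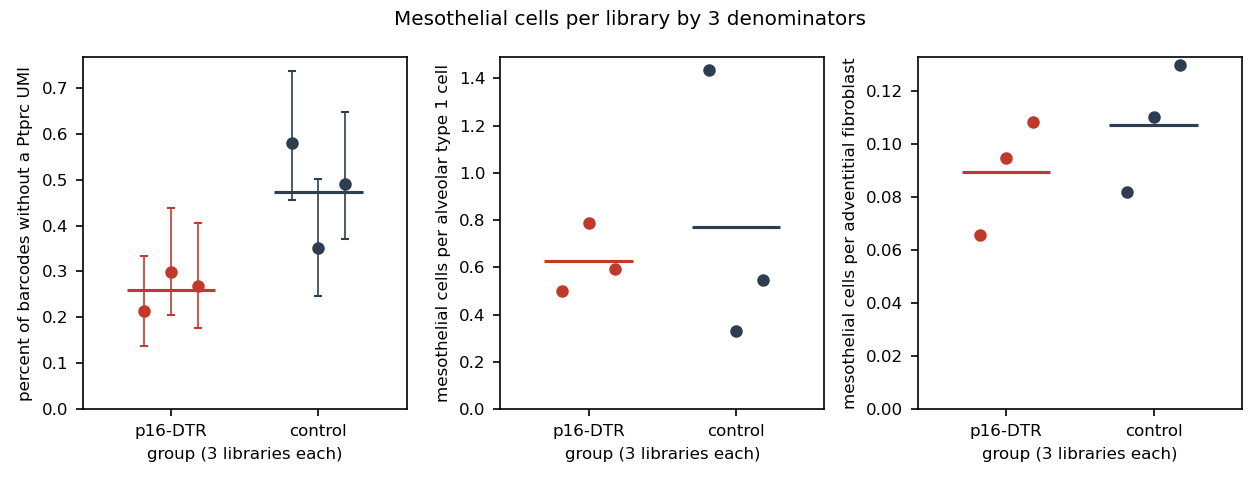
Mesothelial cells in each library as a percent of barcodes without a Ptprc UMI (left, bars are 95% Wilson intervals), per alveolar type 1 cell (middle) and per adventitial fibroblast (right); dots are libraries and horizontal lines group means. The p16-DTR libraries sit at 0.214% to 0.299% and the controls at 0.352% to 0.580% in the left panel, while the groups overlap in the other panels.

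Within the mesothelial cells, gene expression was compared between the groups on UMIs summed per library (500597, 745380 and 562006 in p16-DTR, 1446472, 700520 and 1041641 in control). edgeR's quasi-likelihood test with Benjamini-Hochberg adjustment called 0 of 8500 genes (0%). At an unadjusted p under 0.05 there were 458 (5.39%), 212 (2.49%) higher and 246 (2.89%) lower in p16-DTR. The CPM of the groups did not overlap for 919 genes (10.8%), 433 (5.09%) with p16-DTR above control and 486 (5.72%) below. The median log2 fold change over all genes was 0.0038. DESeq2 called 4 genes, all lower in p16-DTR: Nr3c2 (adjusted p = 0.00794), Cxcl10 (0.00949), Arhgap24 (0.0228) and Iigp1 (0.0457).

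Nr3c2 (chr8:76899442-77245012, plus strand), the mineralocorticoid receptor, had the lowest p of the genes below control. Its CPM were 115.9, 92.57 and 128.1 in p16-DTR and 260.6, 218.4 and 280.3 in control. Every p16-DTR library lay below every control library, with means of 112 ± 18.1 and 253 ± 31.6 CPM (SD, n = 3 each; log2 fold change -1.18 ± 0.19, SE; adjusted p = 0.612 by edgeR's quasi-likelihood test). A UMI was found in 13 of 19, 18 of 26 and 16 of 22 cells, against 56 of 66, 23 of 30 and 38 of 49, and no single cell held more than 26.4% of a library's UMIs. It was the 1 gene that edgeR called when cells with a single Cdh5 or Ptprc UMI were let in (adjusted p = 0.0443).

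By edgeR with the filter on low counts, other genes with low p values below control did not pass either. Without it, edgeR called Nr3c2 (adjusted p = 1.38e-05), Foxp2 (7.44e-06), Chrm2 (1.36e-06), Cacna1c (0.000113), Arhgap24 (2.32e-10) and Iigp1 (2.98e-08). The log2 fold changes of Nr3c2 (-1.19 ± 0.22, SE) and Foxp2 (-1.40 ± 0.25) were close to those with the filter. Why the adjusted p fell was not tested. Foxp2, a forkhead transcription factor, had 45.95, 63.06 and 39.15 CPM against 94.71, 157.0 and 145.0 (log2 fold change -1.39 ± 0.26, edgeR adjusted p = 0.635). Chrm2, a muscarinic acetylcholine receptor, had 215.7, 271.0 and 135.2 against 432.1, 646.7 and 357.1, and Cacna1c, a calcium channel subunit, 16, 24.1 and 12.5 against 40.8, 67.1 and 63.4. For Cacna1c, 1 cell held 27 of 47 UMIs in control library 2 and 1 cell 37 of 66 in control library 3, and its log2 fold change ran from -2.04 to -0.39 over the alternatives. In each of these the groups did not overlap, as for 5.72% of all genes in this direction. Arhgap24, a GTPase-activating protein, had 2.00, 2.68 and 7.12 CPM against 39.4, 78.5 and 22.1, but 52 of the 55 UMIs of control library 2 came from a single cell, and adventitial fibroblasts held 743 CPM of it. Cxcl10, an interferon-induced chemokine, had 12, 17.4 and 23.1 CPM against 60.1, 312.6 and 54.7, without overlap; in control library 2, 127 of 219 UMIs were in a single cell.

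On the higher side in p16-DTR, Socs2, a feedback inhibitor of cytokine signalling, had 205.8, 150.3 and 170.8 CPM against 89.18, 98.5 and 89.28 (log2 fold change 0.93 ± 0.18, edgeR adjusted p = 0.635). Serpinh1, the collagen chaperone HSP47, had 715.1, 776.8 and 761.6 against 569.0, 398.3 and 368.6 (0.75 ± 0.19, 0.803). Anxa4, a calcium-dependent membrane-binding annexin, had 75.9, 56.3 and 71.2 against 39.4, 17.1 and 21.1. None of these overlapped between groups, as for 5.09% of all genes in this direction. Pcdh11x, a protocadherin, had 153.8, 226.7 and 311.4 CPM against 84.3, 54.2 and 123.8, and 1 cell in each p16-DTR library held 54.5%, 69.2% and 29.7% of its UMIs. Without the filter on low counts, edgeR called Socs2 (adjusted p = 0.00608), Serpinh1 (0.0174), Anxa4 (0.000902) and Pcdh11x (1.68e-07). The log2 fold changes of Socs2 (0.91 ± 0.22, SE) and Serpinh1 (0.74 ± 0.19) were again close to those with the filter.

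**Figure D4:**
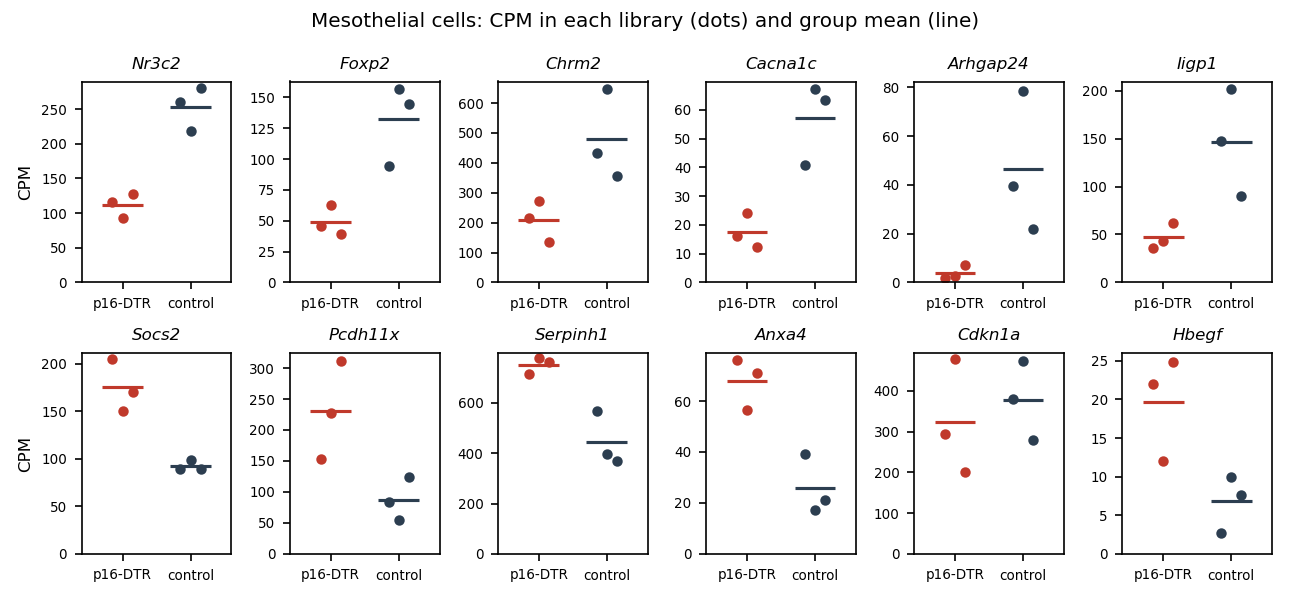
CPM of 12 genes in mesothelial cells of each library (dots) with the group mean (line), each panel from 0 on its own linear axis. Nr3c2 is at 92.57 to 128.1 in p16-DTR and 218.4 to 280.3 in control, and Socs2 at 150.3 to 205.8 against 89.18 to 98.5; Cdkn1a overlaps. No gene shown passed edgeR's adjusted test with the filter on low counts and all 212 cells, while DESeq2 called Nr3c2, Arhgap24 and Iigp1, and edgeR without that filter called these and others, Socs2 among them.

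By gene list, edgeR with the filter on low counts called 0 genes of any list between groups. DESeq2's 4 calls included Iigp1 of the interferon response list and the chemokine Cxcl10. Without a filter on low counts, which was run by list for the interferon, heat shock and immediate early lists only, edgeR called 1 gene in each of the 3. Of 16 heat shock chaperones, 6 had an unadjusted p under 0.05 with p16-DTR above control, as had 2.49% of all genes (Hspa8, Hsp90aa1, Hsp90ab1, Hsph1, Hspd1 and Hspe1), and the list's median log2 fold change was 0.40, against 0.0038 over all genes. Of 21 interferon response genes, 4 had one with p16-DTR below control, as had 2.89% of all genes. Ifit3 (-0.82), Irf1 (-0.72) and Iigp1 (-1.62) were among them, with a list median of -0.09. That median ran from -0.18 without p16-DTR replicate 2 to -0.025 without p16-DTR replicate 3, and was -0.31 with equal cell numbers. Iigp1, an interferon-inducible GTPase, had 36.0, 42.9 and 62.3 CPM against 147.3, 201.3 and 90.2. Of 27 further mesothelial markers, 4 were below control at that level (Muc16, Nkain4, Rspo1 and Anxa8) and Krt8 above, with a median of -0.15. Of the 16 immediate early and dissociation stress genes 0 were at that level. Their median of -0.29 ran from -0.60 without p16-DTR replicate 3 to -0.078 without p16-DTR replicate 1 and -0.047 without control replicate 1. Without cells holding 3 check markers of another lineage 4 were lower at that level (median -0.44). Without p16-DTR replicate 2 or control replicate 3 it was 2, and without a filter 6, while 1 was higher with looser exclusion of Cdh5 and Ptprc.

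A single cell held a large part of several of these transcripts. In p16-DTR library 1, 1 cell of 86274 UMIs, with 1 Msln, 5 Upk3b, 31 Wt1 and 1 Lrrn4 UMI, held 208 of the 208 Acta2 UMIs of that library's cells, 211 of 215 of Tagln, 143 of 165 of Timp1 and 94 of 114 of Col1a1. Acta2 and Tagln encode contractile proteins of smooth muscle and myofibroblasts. The same cell held 87 of 118 Hspe1, 285 of 621 Hspa8 and 119 of 390 Hsp90aa1 UMIs. It was not marked as a doublet by neighbours but held 3 or more check markers of another lineage. Without it, the heat shock genes at an unadjusted p under 0.05 numbered 1 in place of 6 and their median was 0.23. That count was 2 without p16-DTR replicate 1, p16-DTR replicate 2, control replicate 2 or control replicate 3, each left out in turn, 2 without cells holding 3 check markers of another lineage and 1 under the stricter marker rule. It was 7 without p16-DTR replicate 3 or control replicate 1, and 6 without likely doublets or with equal cell numbers. The list's median stayed positive in every alternative, from 0.17 to 0.52. Without the same single cell, Acta2 in that library went from 415.5 to 0 CPM, and the log2 fold change of Timp1, an inhibitor of matrix proteases, went from 1.92 to 0.63. edgeR then called 0 of 8476 genes, and Nr3c2 was at -1.08 (adjusted p = 0.651).

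Whether the group difference in mesothelial cells was unlike that in their neighbours was tested by the interaction of group and cell type. edgeR called 0 of 10308 genes (0%) against alveolar type 1 cells, with 378 (3.67%) at an unadjusted p under 0.05, and 0 of 13576 (0%) against adventitial fibroblasts, with 584 (4.3%).

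Genes related to the model were counted in the mesothelial cells. Cdkn2a, whose p16 product halts the cell cycle and whose 3' end is shared with p19Arf, had 5, 7 and 1 UMIs in the p16-DTR libraries (10.0, 9.39 and 1.78 CPM) and 1, 0 and 0 in the controls (0.691, 0 and 0). It was too low for the filter of the group comparison. At full depth 7 of 67 cells (10.4%) had a UMI in the libraries labelled p16-DTR and 1 of 145 (0.690%) in control; over libraries this was 10.2% ± 5.43 against 0.505% ± 0.875, without overlap (exact permutation p = 0.1, n = 3 each), and 7.31% against 0.654% without cells holding 3 check markers of another lineage (exact p = 0.1). Neutrophils, counted for comparison, had one in 139 of 2708 cells (5.13%) against 6 of 1956 (0.307%). Their median depths were 11147 and 11466.5 UMIs, where the mesothelial cells had 21974 and 20385. Over libraries the groups did not overlap in neutrophils either (exact permutation p = 0.1, n = 3 each). Adventitial fibroblasts, at 31750 and 30828, had one in 11.1% against 0.618%. Of the 13 p16-DTR mesothelial UMIs, 4 came from the cell rich in Acta2. With every cell thinned to 5000 UMIs, which left out 2 and 11 cells, 0 of 18, 1 of 25 and 0 of 22 cells had one in p16-DTR and 0 of 62, 0 of 28 and 0 of 44 in control; a count of 0 in these control libraries allows shares of up to 4.84%, 10.7% and 6.82%, for counting error only. The mean over libraries was 1.33% ± 2.31 against 0% (exact permutation p = 1.0, n = 3 each). Neutrophils gave 1.45% ± 0.629 at that depth in p16-DTR and 0 of 1784 cells in control, and the origin of these UMIs was not tested. With 18, 25 and 22 mesothelial cells in p16-DTR, that depth could not show a small difference. Thinned to 10000 UMIs, 2 of 16, 4 of 24 and 0 of 22 cells in p16-DTR and 0 of 56, 0 of 25 and 0 of 37 in control had one, against 53 of 1624 neutrophils in p16-DTR (3.26%); over libraries the groups overlapped (exact permutation p = 0.4, n = 3 each). The direction is the reverse of a loss of p16-high cells and was shared by all other barcodes past the filter (thinned, 3.23% against 0.633%), which is why the libraries are named here as labelled.

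Hbegf, an EGF family gene, is the mouse counterpart of the gene used as diphtheria toxin receptor, and its CPM are not a level of that receptor. It had 22.0, 12.1 and 24.9 CPM in p16-DTR and 2.77, 9.99 and 7.68 in control. The groups did not overlap, and it was too low for the filter of the group comparison. In p16-DTR library 1 the 11 Hbegf UMIs came from 1 cell. Alveolar type 1 cells also held more in p16-DTR without overlap (419.5, 368.1 and 306.5 against 173.2, 240.0 and 206.4), as did neutrophils (3.58, 5.22 and 5.41 against 2.69, 2.51 and 2.27). Adventitial fibroblasts held 5.36, 2.99 and 2.91 against 5.29, 2.35 and 4.77, which overlapped, and all other barcodes together stood at 15, 15.8 and 14.7 against 17.5, 24.1 and 21.4; whether transcripts of the transgene reached this count was not tested. A tdTomato feature in the matrices had 0 UMIs in all 212 cells. Among all other barcodes past the filter it was found in 86, 73 and 91 barcodes of the p16-DTR libraries and in 0 of each control library, which runs with the labels. Cdkn1a (p21), another brake on the cell cycle, had 293.6, 479 and 201.1 CPM against 378.9, 472.5 and 278.4, which overlapped (log2 fold change -0.21 ± 0.29, edgeR adjusted p = 0.985). It was higher than in both neighbours (351 ± 112 CPM, against 46.5 and 199; adjusted p = 5.7e-07 and 0.0051).

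The mesothelial cells were not uniform. In 199 cells thinned to 5000 UMIs (13 shallower cells left out), 1976 genes reached a mean of 0.5 UMIs, and the median of their variance to mean ratios was 1.29. Igfbp5 had a ratio of 19.3 while present in 98.0% of cells, and C3 was present in 100% of them, so these varied in amount. Others were present in part of the cells. Slpi, a secreted inhibitor of neutrophil elastase, had a UMI in 53.3% of cells overall and in 72.2%, 52.0% and 31.8% of cells in p16-DTR and 38.7%, 71.4% and 65.9% in control. Nxph1 was in 57.3%, Kcnd2 in 45.7% and Slurp1, a secreted ligand of nicotinic receptors, in 33.2%. Zfp804b, a zinc finger gene, was in 14.1% of cells but reached 28 UMIs in a cell, and ranged from 0% in control library 2 to 24.2% in control library 1. Egr1 (56.8%) and Fos (63.8%), immediate early genes that tissue dissociation can induce, were also present in part of the cells. For Slpi and Zfp804b the groups overlapped. Prg4, the joint and surface lubricant lubricin, was in 19.8% of cells at full depth.

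**Figure D5:**
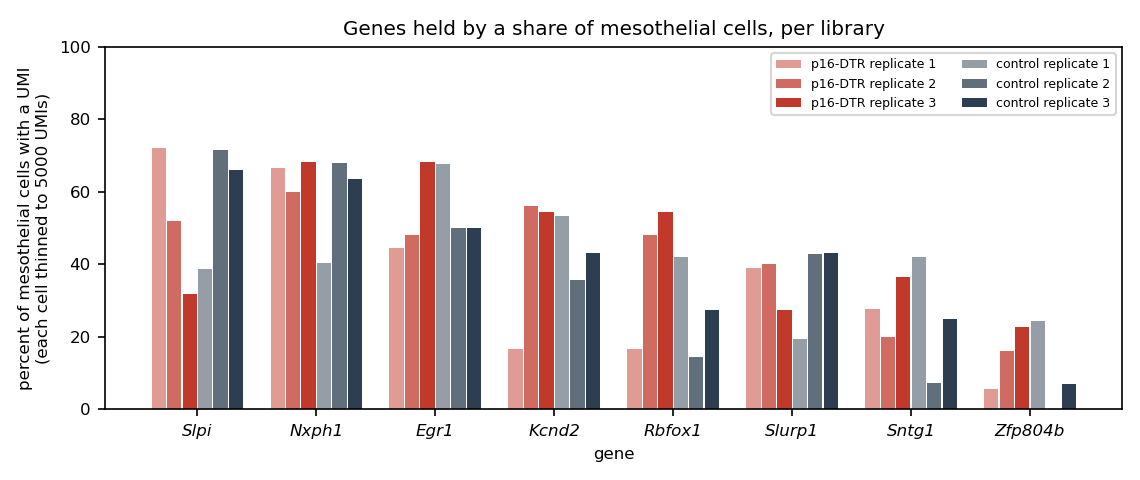
Percent of mesothelial cells with a UMI of 8 genes after thinning each cell to 5000 UMIs; bars are libraries, red for p16-DTR and dark for control. Slpi runs from 31.8% to 72.2% within p16-DTR and from 38.7% to 71.4% within control, and Zfp804b from 0% to 24.2% within control.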

How the data were processed

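The authors deposited, per library, a matrix of UMI counts per gene and barcode, made with Cell Ranger 8.0.1 on mm10 per the submitters' processing notes. Of 31054 features, 31011 matched GENCODE M21 by ID. Cells were picked from raw UMIs, kept with likely doublets in, and summed per library; genes of the rules stayed out of calls. Tests used edgeR 4.0.16 (filterByExpr, TMM, quasi-likelihood, threshold 0.05) in R 4.3.3, with DESeq2 1.42.0 as an alternative, and exact permutation in scipy 1.17.1; scripts were tested on simulated data. Doublets were sought with 2 simulated per cell, 2000 variable genes, 30 components and 50 neighbours, taking 0.4% per 1000 barcodes. CPM are UMIs over 1000000 summed UMIs. Alternatives covered doublets, rules, filters, scaling and each library left out. Genes named were the rule genes, the model's genes, up to 3 abundant genes of each list, the 10 of lowest p each way and those most above or below both neighbours; others named were chosen after their values were seen. Members and lists were chosen with earlier results of these data known. Some genes are not reported here.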

Additional observations from a re-analysis of the deposited data

How the results depend on the processing

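The count of genes called between groups, 0 with edgeR as described, depended on settings: 167 genes without a filter on low counts (98 of them among the 8500 tested otherwise), 4 with DESeq2, 1 with looser exclusion of Cdh5 and Ptprc and 0 under the other alternatives run, each library left out included (0 to 0). With the replicate number as a block 0 genes were called. Departures of expression from the group mean were correlated between p16-DTR and control libraries. Same-numbered libraries gave -0.109, 0.0890 and -0.00848, and differently numbered ones -0.147 to 0.166. The labels give no batch, and whether same-numbered libraries shared one was not tested. Without a filter, the interactions gave 43 genes against alveolar type 1 cells and 114 against adventitial fibroblasts. Leaving out 1 library gave 0 to 5 (Cdh11, Mgp, Ptprd, Serping1 and Sod3, without p16-DTR replicate 1) and 0 to 1 (Arhgap24, without control replicate 3). It gave 4560 to 5063 calls against type 1 cells and 5239 to 5736 against fibroblasts, where all cells gave 5171 and 5970. The log2 ratio of the mesothelial share, p16-DTR over control, ran from -1.04 to -0.69 with 1 library left out (exact permutation p of 0.2 each, the smallest possible). Over the other rules and barcode denominators it ran from -1.07 to -0.74. Counted per adventitial fibroblast the log2 ratio was -0.26, and per alveolar type 1 cell -0.29. The difference in thinned Cdkn2a share was 0 percentage points without cells holding 3 check markers and 0 to 2 with 1 library left out (0 without p16-DTR replicate 2). Cdkn1a between groups reversed with equal cell numbers (0.12) and without p16-DTR replicate 3 (0.033), and ran from -0.60 to 0.033 with 1 library left out; the cause was not tested. The libraries held 19 to 66 mesothelial cells each.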
